A study of Mus musculus with 7 samples.

Results

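Transcripts of tendon and of Schwann cells were followed as a check on RNA from other tissues in satellite cells, the quiescent stem cells (QSCs) of skeletal muscle, that had been sorted from living and from dead mice. The 5 genes were Tnmd, Thbs4 and Fmod for tendon and S100b and Mbp for Schwann cells. Each was read from its probe set annotated to that gene alone. They are 5 of the 13287 genes with such a probe set among the 18675 probe sets with deposited values. They had been chosen because their values after death lay above those of the living animals, so the comparison of post-mortem with old arrays is given for them as a description, without a test. All animals carried Tg:Pax7-nGFP, a transgene in which Pax7 regulatory sequence drives a nuclear green fluorescent protein in satellite cells, and cells were sorted on that fluorescence and on size and granularity after hind- and forelimb muscles were cut up, digested with collagenase D and trypsin and filtered. The old group (n = 2) came from living mice of 24 to 26 months by the sample labels and the methods, although the series design gives the same figures in weeks and its title calls the animals young adults. The D2PM group (n = 2) came from mice 2 days after death and the D4PM group (n = 3) from mice 4 days after death. The labels and methods give no age for the dead animals, described elsewhere in the study as 8 to 12 weeks old, so death and age cannot be told apart in any comparison with the old group.

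Tendon cells (tenocytes) lay down parallel collagen fibrils that carry force from muscle to bone, and each limb muscle ends in such tissue. Tnmd encodes tenomodulin, a membrane glycoprotein of mature tenocytes. Thbs4 encodes thrombospondin 4, a secreted protein of tendon matrix and of the muscle-tendon junction. Fmod encodes fibromodulin, a small leucine-rich proteoglycan that binds collagen I and controls fibril assembly. Schwann cells ensheath the axons of the nerves that run through muscle, and many of them wind their membrane into myelin. S100b encodes a calcium-binding protein used as a marker of Schwann cells and other glia, and Mbp encodes myelin basic protein, which holds the inner faces of the myelin membrane together. Fat cells and some other cells also make S100b, and other products of the Mbp gene occur outside myelin.

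The 250 bases before the annotated start of 4 of the genes are printed from RefSeq (GRCm38.p6), because these windows let the genes be compared at the sites where tendon and Schwann lineage factors could be looked for. Capitals mark the letters CANNTG, the E-box bound by basic helix-loop-helix factors such as scleraxis in tendon, and the letters ACAAAG or ACAATG, the core bound by SOX factors such as SOX10 in Schwann cells, on either strand.
Tnmd, chrX:133850758-133851007, plus strand: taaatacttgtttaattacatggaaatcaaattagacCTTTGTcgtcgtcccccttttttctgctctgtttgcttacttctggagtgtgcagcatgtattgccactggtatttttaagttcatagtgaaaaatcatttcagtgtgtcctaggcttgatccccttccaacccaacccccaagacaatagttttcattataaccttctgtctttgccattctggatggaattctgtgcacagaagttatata
Thbs4, chr13:92794819-92795068, minus strand: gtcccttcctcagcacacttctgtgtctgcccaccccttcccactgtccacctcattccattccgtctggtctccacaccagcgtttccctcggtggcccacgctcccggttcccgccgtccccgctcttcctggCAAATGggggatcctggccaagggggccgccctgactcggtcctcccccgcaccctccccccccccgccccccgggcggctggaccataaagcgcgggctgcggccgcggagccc
Fmod, chr1:134037004-134037253, plus strand: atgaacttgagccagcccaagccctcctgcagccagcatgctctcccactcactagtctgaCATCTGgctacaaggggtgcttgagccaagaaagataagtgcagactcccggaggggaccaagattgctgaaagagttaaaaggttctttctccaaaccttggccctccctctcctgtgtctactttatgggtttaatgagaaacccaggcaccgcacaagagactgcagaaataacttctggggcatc
S100b, chr10:76253586-76253835, plus strand: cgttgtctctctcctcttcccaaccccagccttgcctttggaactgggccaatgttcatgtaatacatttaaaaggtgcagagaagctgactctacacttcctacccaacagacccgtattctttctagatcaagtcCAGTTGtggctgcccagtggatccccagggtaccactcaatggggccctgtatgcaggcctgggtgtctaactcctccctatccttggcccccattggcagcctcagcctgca
The Tnmd window held no E-box and 1 SOX match (CTTTGT, 213 bases before the start). Thbs4 held 1 E-box (CAAATG, 115 bases before the start), Fmod held 1 (CATCTG, 189 bases) and S100b held 1 (CAGTTG, 113 bases), and none of these 3 windows held a SOX match. Over all 32851 RefSeq windows of this length, 66.2% held an E-box and 25.2% held a SOX match, so these letters are common and are given as a description only.

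Values are log2 expression levels as deposited, so a difference of 1 is a doubling of the array signal, and levels of different probe sets are not set against each other. The array medians lay between 6.11 and 6.19. All 5 genes passed the filter on dim probe sets, a mean of at least 5.12 over the 7 arrays, and 9944 genes were tested. The old means of Tnmd (4.83) and S100b (4.88) lay below that value, with 1 of the 2 old arrays above it for each. Their differences from old are thus measured from dim values, and they passed the filter through the post-mortem arrays. The 16 listed satellite cell genes were all measured, with mean levels between 7.63 and 11.4. Nothing in the labels says which arrays came from separate animals, and no array was left out.

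The 3 tendon transcripts were higher after death than in the old group, and they varied more between arrays than most genes. For Tnmd, the log2 level was 5.33 and 4.33 in the old group, 6.56 and 5.86 in D2PM and 5.59, 6.24 and 4.92 in D4PM. Both D2PM arrays lay above both old arrays, whereas D4PM replicate 3 lay 0.41 below old replicate 1, so old and D4PM overlapped. For Thbs4, the log2 level was 6.96 and 5.87 in the old group, 7.71 and 7.43 in D2PM and 7.71, 8.15 and 6.51 in D4PM. Again D4PM replicate 3 fell below old replicate 1, by 0.46, and the other 4 post-mortem arrays lay above both old arrays. For Fmod, the log2 level was 6.33 and 6.13 in the old group, 7.61 and 7.88 in D2PM and 7.81, 8.25 and 7.13 in D4PM. All 5 post-mortem arrays lay above both old arrays, with a gap of 0.80 between the nearest values. The mean of the post-mortem groups minus the old mean was 1.07 for Tnmd, 1.10 for Thbs4 and 1.50 for Fmod on the log2 scale, with standard errors of 0.34, 0.38 and 0.23 from the limma fit across all genes. The D2PM differences from old were 1.38, 1.16 and 1.51, and the D4PM differences 0.76, 1.04 and 1.50. In sorted bulk RNA, more cells of a type and more RNA per cell cannot be told apart.

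**Figure D1:**
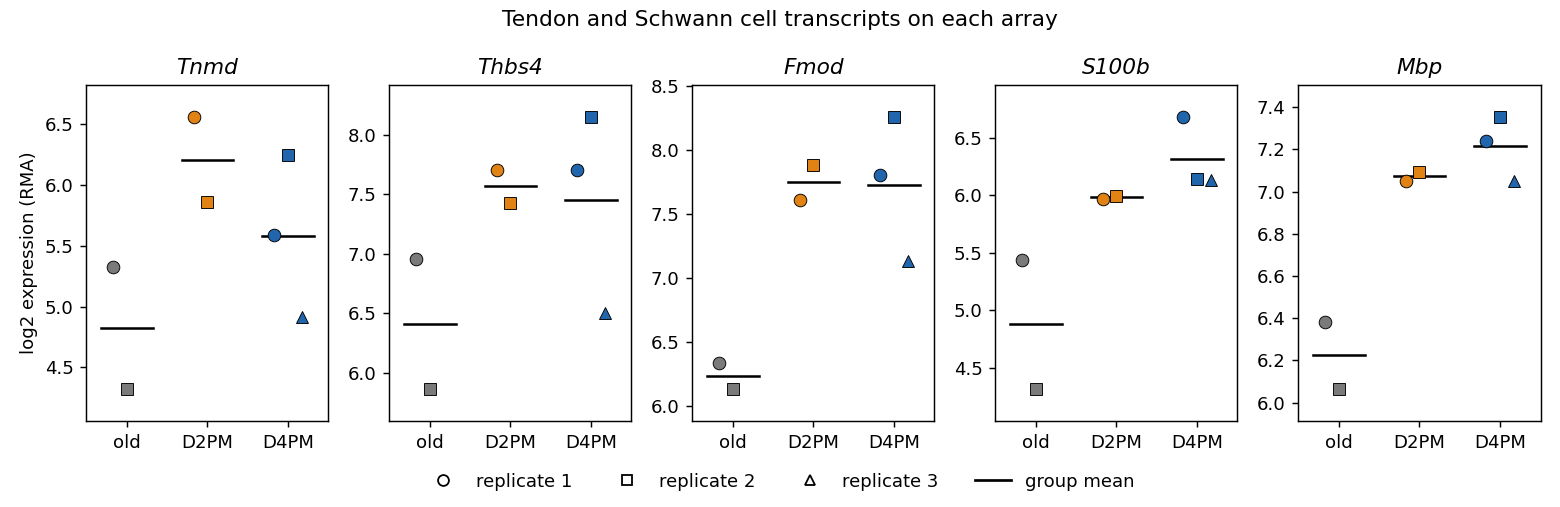
The log2 expression level of the 5 transcripts is plotted for each of the 7 arrays by group (old n = 2, D2PM n = 2, D4PM n = 3), with points for arrays (the shape gives the replicate) and lines for group means. Fmod, S100b and Mbp have all 5 post-mortem arrays above both old arrays, and D4PM replicate 3 overlaps old replicate 1 for Tnmd and Thbs4.

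Both Schwann cell transcripts were higher on each post-mortem array than on either old array. For S100b, the log2 level was 5.44 and 4.32 in the old group, 5.96 and 5.995 in D2PM and 6.67, 6.14 and 6.13 in D4PM. The nearest old and post-mortem values were 0.53 apart, and all 3 D4PM arrays also lay above both D2PM arrays. For Mbp, the log2 level was 6.38 and 6.07 in the old group, 7.05 and 7.09 in D2PM and 7.24, 7.35 and 7.05 in D4PM. Old and post-mortem arrays of Mbp were separated by 0.67, and the D2PM and D4PM ranges touched at D2PM replicate 1 and D4PM replicate 3. The mean of the post-mortem groups exceeded the old mean by 1.27 for S100b and 0.92 for Mbp, with standard errors of 0.25 and 0.13. The D2PM differences from old were 1.10 and 0.85 and the D4PM differences 1.44 and 0.99. Fmod, S100b and Mbp, 3 of the 5 genes, thus had every post-mortem array above both old arrays, a pattern found in 22.8% of all genes tested. By the adjusted p of the fit, 29.0% of all genes differed between post-mortem and old, 14.4% higher and 14.7% lower. Since the genes were chosen on this contrast, nothing is read from their count against that background.

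In order of group means, the old group was lowest for all 5 genes. D4PM was the middle group and D2PM the highest for Tnmd (means 4.83 ± 0.71, 5.58 ± 0.66 and 6.21 ± 0.49 for old, D4PM and D2PM, SD). The same order held for Thbs4 (6.41 ± 0.77, 7.45 ± 0.85 and 7.57 ± 0.19) and Fmod (6.23 ± 0.14, 7.73 ± 0.57 and 7.75 ± 0.19). For S100b the order was old, D2PM and D4PM, with means of 4.88 ± 0.79, 5.98 ± 0.02 and 6.31 ± 0.31. Mbp had that order too, with means of 6.22 ± 0.22, 7.07 ± 0.03 and 7.21 ± 0.15. The D2PM and D4PM neighbours overlapped or touched in their array values for Tnmd, Thbs4, Fmod and Mbp.

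Single arrays stood out within the groups. Old replicate 1 was above old replicate 2 for all 5 genes, by 1.00 for Tnmd, 1.09 for Thbs4, 0.20 for Fmod, 1.12 for S100b and 0.31 for Mbp on the log2 scale, and over all genes tested old replicate 2 was the lower of the pair for 45.5%. Without old replicate 2 the post-mortem excess came to 0.57 for Tnmd, 0.55 for Thbs4 and 0.71 for S100b, and without old replicate 1 it came to 1.57, 1.64 and 1.83. D4PM replicate 3 was the lowest post-mortem array for Tnmd, Thbs4 and Fmod, as it was for 24.1% of all genes. D4PM replicate 2 was the highest of the 7 arrays for Thbs4, Fmod and Mbp, against 11.9% of all genes. D4PM replicate 1 was the highest for S100b, against 13.6% of all genes, and D2PM replicate 1 for Tnmd. The residual SD of the fit was 0.64 for Tnmd, 0.72 for Thbs4, 0.42 for Fmod and 0.45 for S100b, at percentiles 99.6, 99.8, 98.2 and 98.6 of the genes tested, and 0.16 for Mbp, where the median gene had 0.15.

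Whether the transcripts changed between 2 and 4 days after death was tested in the fit across all genes. None of the 5 passed an adjusted p of 0.05 in limma, against 19 of 9944 genes (0.191%), 16 higher (0.161%) and 3 lower (0.0302%) in D4PM, and 772 genes had an unadjusted p below 0.05. The D4PM minus D2PM difference was -0.62 for Tnmd (SE 0.36, 95% confidence interval -1.42 to 0.18, adjusted p = 0.665). It was -0.12 for Thbs4 (SE 0.41, interval -1.01 to 0.78, adjusted p = 0.937) and -0.02 for Fmod (SE 0.25, interval -0.58 to 0.54, adjusted p = 0.981). For the Schwann transcripts it was 0.34 for S100b (SE 0.27, interval -0.26 to 0.93, adjusted p = 0.726) and 0.14 for Mbp (SE 0.14, interval -0.17 to 0.46, adjusted p = 0.762). A fall of 1 on the log2 scale lay inside the interval of Tnmd and Thbs4, and a rise of 1 lay outside each interval. The limma standard errors draw each gene's spread towards that of all genes. The residual SDs of Tnmd, Thbs4, Fmod and S100b lay at percentiles 98.2 to 99.8, so their intervals rest on less than their own spread. A rise of 1 is therefore not taken as excluded for these genes. Without D4PM replicate 3 the difference for Thbs4 was 0.36 and that for Fmod 0.28, and it also turned to 0.021 for Thbs4 without D2PM replicate 1 and to 0.12 for Fmod without D2PM replicate 2, so the sign of neither was settled. The 3 D4PM arrays lay above both D2PM arrays for S100b, a pattern found in 9.69% of the genes tested. Without D2PM replicate 1, limma called 0 genes between the days (358 at an unadjusted p below 0.05), and without D2PM replicate 2 it called 0 (781). In such a fit the lone array left in a group is assumed to vary like the arrays of the other groups.

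**Figure D2:**
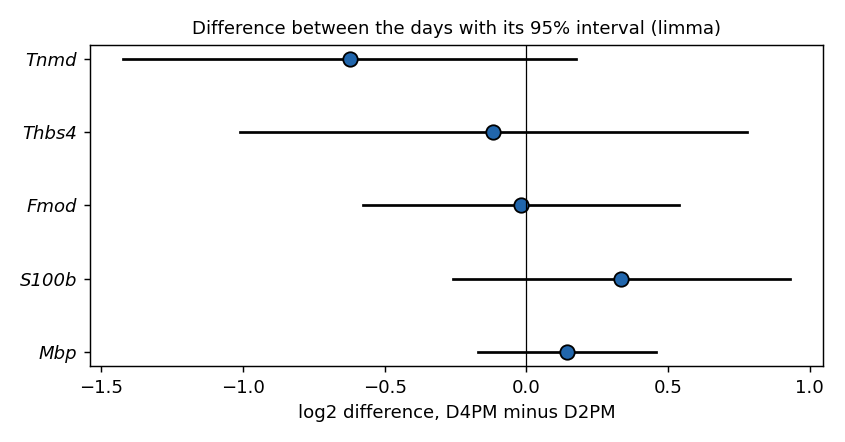
The D4PM minus D2PM difference in log2 level is plotted for the 5 transcripts with its 95% confidence interval from the limma fit (n = 3 and 2 arrays). Each interval includes 0, and the widest are those of Thbs4 (-1.01 to 0.78) and Tnmd (-1.42 to 0.18).

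Other genes of tendon, none of them among the 5, did not move as 1 group. The gene lists used here and below were drawn up with earlier results of these data known, so their calls are no independent check. Among 7 tested tendon markers beside the 3, 3 were higher after death and none lower, where 14.4% and 14.7% of all genes were. Chad, chondroadherin of cartilage and tendon matrix, rose by 1.34 (SE 0.13, adjusted p = 6.34e-05). Its log2 level was 5.52 and 5.42 in the old group, 6.90 and 6.97 in D2PM and 6.90, 6.66 and 6.49 in D4PM, without overlap. Kera, the proteoglycan keratocan, rose by 1.19 (adjusted p = 0.00741), from 5.10 and 5.13 to values between 5.43 on D4PM replicate 3 and 6.85 on D4PM replicate 2. Like Tnmd, Thbs4 and Fmod, Kera was thus lowest after death on D4PM replicate 3. Scx, scleraxis, the transcription factor of the tendon lineage, rose by 0.47 (adjusted p = 0.0181), from 6.50 and 6.58 to between 6.90 and 7.33, and D4PM replicate 3 was its highest array. Mkx, another tendon transcription factor, differed by -0.11 and Comp, cartilage oligomeric matrix protein, by 0.29 (adjusted p = 0.597 and 0.0866). Mkx is named here after its values were seen. Prelp, a proteoglycan of cartilage and tendon, differed by -0.32 (adjusted p = 0.243). Without old replicate 2, with 1 old array left, the differences were 1.29 for Chad, 1.20 for Kera and 0.51 for Scx (adjusted p = 0.0103, 0.123 and 0.103). Without old replicate 1 or without D2PM replicate 1 the differences were 1.17 and 1.17 for Kera and 0.43 and 0.48 for Scx. Without D2PM replicate 2, Scx differed by 0.47. Kera was called in 11 of 17 alternative ways of processing and Scx in 12 of 18.

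Of 16 genes of the tendon matrix at large, none was called higher and 3 were called lower after death. Tnc, tenascin C, fell by 2.13 (adjusted p = 0.000189), from 6.68 and 7.67 to between 4.44 and 5.41, Lox, the enzyme that cross-links collagen, fell by 1.64 (adjusted p = 2.01e-05), and Col5a2, a chain of fibril-forming collagen V, fell by 0.49 (adjusted p = 0.0222). Without any 1 of the old or D2PM arrays, Col5a2 differed by between -0.51 and -0.46 and missed the threshold (adjusted p from 0.0689 to 0.167). For Lox the log2 level was 7.73 and 7.77 in the old group, 6.31 and 5.95 in D2PM and 6.06, 6.26 and 5.94 in D4PM. Dcn, the abundant proteoglycan decorin, differed by 1.11 (adjusted p = 0.0620), with log2 levels of 9.97 and 7.94 on the old arrays against 9.43 to 10.4 after death, so old replicate 1 lay inside the post-mortem range. Ogn, the proteoglycan osteoglycin, differed by 0.37 (adjusted p = 0.0654). Sparc and Bgn, matrix proteins of many connective tissues, differed by -0.12 and 0.05 (adjusted p = 0.478 and 0.824). Over the 23 tendon genes of both lists, the median difference was 0.16 against 0.0022 over all genes tested, and 17 were above 0. With 3 called higher and 3 lower of 23, the shares were near those of all genes (14.4% and 14.7%). Between the days none of the 23 was called (0.191% of all genes), with a median of -0.22 against -0.03 over all genes, and 14 of the 16 matrix genes had their lowest post-mortem value on D4PM replicate 3, against 24.1% of all genes.

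**Figure D3:**
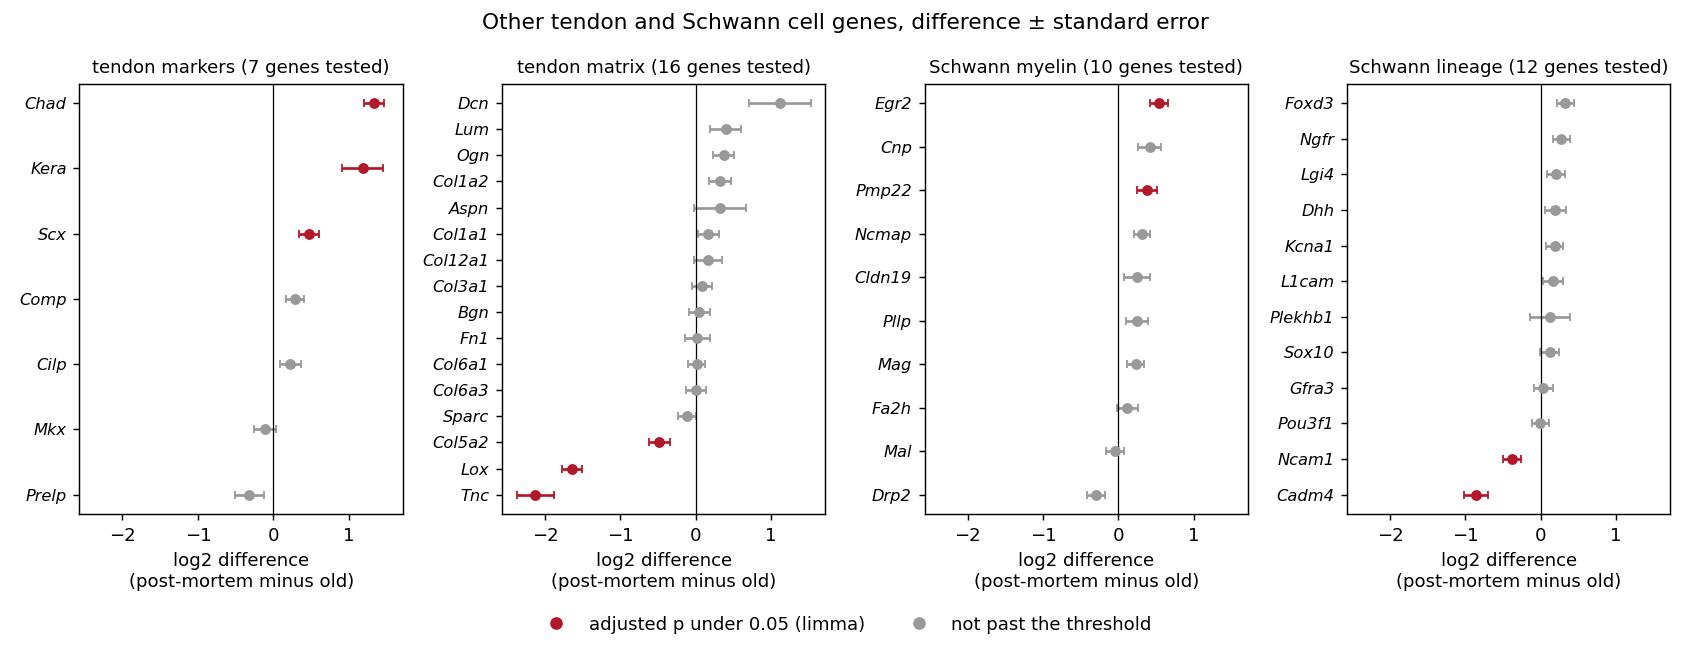
The post-mortem minus old difference in log2 level is plotted for the other tendon genes (7 markers and 16 matrix genes) and Schwann cell genes (10 myelin and 12 lineage genes), with points for genes, bars for the standard error of the limma fit and red for an adjusted p under 0.05. Tendon matrix genes run from -2.13 (Tnc) to 1.11 (Dcn) and Schwann lineage genes from -0.86 (Cadm4) to 0.32 (Foxd3).

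Other Schwann cell genes did not move as 1 group either. Of 32 with a probe set of their own, 22 passed the filter. Of these, 2 were called higher and 2 lower after death, where 14.4% and 14.7% of all genes were. Among 10 tested myelin genes, Egr2, the transcription factor that drives peripheral myelination and an immediate early gene of many cell types, rose by 0.54 (adjusted p = 0.00528), from 11.3 and 11.2 to between 11.7 and 11.9. Pmp22, a compact myelin protein that other cells also make, rose by 0.38 (adjusted p = 0.0415), from 10.9 and 10.5 to between 11.03 and 11.17. Without old replicate 2, with 1 old array left, the differences were 0.47 for Egr2 and 0.21 for Pmp22. Over 18 alternative ways of processing, Egr2 was called in 16 and Pmp22 in 8. Pmp22 missed the limma threshold with a second quantile normalisation (adjusted p = 0.0587) and with median centring (0.0695). It also missed it without any 1 of the D4PM arrays (0.0509 to 0.0665). Drp2, a dystrophin-related protein of the myelin sheath, and Mal, a proteolipid of myelin and other membranes, differed by -0.30 and -0.04 (adjusted p = 0.0804 and 0.818). Among 12 lineage genes, Cadm4, an adhesion molecule of Schwann cells at the axon, fell by 0.86 (adjusted p = 0.00250), and Ncam1, an adhesion molecule that satellite cells carry too, fell by 0.39 (adjusted p = 0.0288). Ncam1 missed the threshold with the replicate number as a block (adjusted p = 0.0531) and without any 1 of the old or D2PM arrays (0.0576 to 0.174). Ngfr, the low-affinity neurotrophin receptor, differed by 0.27 and Plekhb1 by 0.13 (adjusted p = 0.100 and 0.746), and Plekhb1 came to 0.78 without old replicate 1 and to -0.53 without old replicate 2. Sox10, the factor that defines the glial lineage of the nerve, had log2 levels of 6.02 and 5.94 in the old group and of 5.95 to 6.29 after death, a difference of 0.12 (adjusted p = 0.510). Erbb3, the neuregulin receptor of Schwann cells, lay between 4.32 and 4.72, Scn7a between 3.78 and 4.52 and Cdh19 between 2.89 and 3.43 on all 7 arrays, below the filter. These 4 genes are named after their values were seen, and only Cdh19 of the 4 had all post-mortem arrays above both old ones. Since Erbb3, Scn7a and Cdh19 were dim on every array, nothing is read from the 4 against the rest of the list. The median over the 22 was 0.19 against 0.0022 for all genes. Of the 22, 17 differed by more than 0, 8 of the 10 myelin genes among them, against 4997 of all 9944 genes. All post-mortem arrays lay above both old arrays for 8 of the 22 and below both for 3 (22.8% and 23.2% of all genes). Between the days none of the 22 was called (0.191% of all genes).

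Among their own families the transcripts kept different company. Of 10 other small leucine-rich proteoglycans, 3 were higher after death, namely Chad, Kera and Ecm2 (0.53, adjusted p = 0.0308), and none was lower, where 14.4% and 14.7% of all genes were. Without old replicate 2, Ecm2 differed by 0.25 (adjusted p = 0.398). Of the 4 other thrombospondins, Thbs1, a matrix protein of wounds and an activator of TGF-beta, rose by 1.30 (adjusted p = 0.00687), from 9.06 and 9.07 to between 9.48 on D4PM replicate 3 and 10.99 on D4PM replicate 2. Thbs1 therefore had the same lowest and highest post-mortem array as Thbs4. Without old replicate 1 or 2 Thbs1 differed by 1.30 and 1.31 (adjusted p = 0.0862 and 0.123), and it was the 1 thrombospondin called. Thbs2 and Thbs3 differed by 0.02 and -0.11 (adjusted p = 0.947 and 0.582). Of 11 other S100 genes, S100a1, a calcium sensor of striated muscle, rose by 0.53 (adjusted p = 0.0247), and 2 others fell, namely S100a3 by 1.27 (adjusted p = 0.000735) and S100a11 by 0.47 (adjusted p = 0.0150). Without old replicate 2, S100a1 differed by 0.29 (adjusted p = 0.326) and S100a11 by -0.38 (adjusted p = 0.159). S100a10, S100a6 and S100a16 differed by -0.11, -0.20 and -0.04 (adjusted p = 0.644, 0.367 and 0.857).

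Markers of other cell types were measured on the same arrays. All 20 endothelial genes were above the old mean after death and 14 were called higher (14.4% of all genes), with a list mean of 6.52 and 5.90 on the old arrays and between 6.90 and 7.45 on the post-mortem arrays. Fabp4 and Cdh5 of capillary and vessel walls rose by 1.42 and 1.77 (adjusted p = 0.00361 and 0.000823), and without old replicate 2 they differed by 0.77 and 1.13 (adjusted p = 0.0876 and 0.0235). Old replicate 1 was above old replicate 2 for 20 of these 20 genes, as it was for the 5 transcripts. The same order held for 14 of 17 myofibre, 7 of 8 fibroadipogenic progenitor and 6 of 7 macrophage and monocyte genes. It held for 5 of 9 smooth muscle and pericyte genes, 9 of 16 satellite cell genes and 45.5% of all genes. Of 17 myofibre genes 13 were higher and none lower, with a list mean of 7.29 and 6.99 in the old group and from 7.92 to 8.27 after death, highest on D4PM replicate 2. The Acta1 gene of skeletal actin rose by 1.88 (adjusted p = 1.36e-05), whereas Actn3, an actinin of fast fibres, differed by -0.0061 (adjusted p = 0.977). For smooth muscle and pericytes, none of 9 genes was called, with list means of 7.32 and 7.24 against 7.42 to 7.65 and differences of 0.37 for Acta2 and 0.67 for Rgs5 (adjusted p = 0.103 and 0.0884). For fibroadipogenic progenitors, the connective tissue progenitors of muscle, 2 of 8 were higher, with list means of 8.08 and 7.62 against 7.94 to 8.26. Hsd11b1 rose by 0.51 (adjusted p = 0.0302, or 0.378 without old replicate 2), and Dpt differed by -0.19 (adjusted p = 0.302). For macrophages and monocytes, 1 of 7 was lower and none higher, with list means of 6.37 and 5.70 against 5.58 to 5.95 and differences of -0.26 for Cd68 and 0.0053 for Lyz2 (adjusted p = 0.260 and 0.994). None of the 3 lymphocyte genes with a probe set, Cd79a and Nkg7 among them, passed the filter. Satellite cell genes had list means of 10.10 and 10.01 in the old group and from 9.99 to 10.21 after death, with 5 of 16 called higher and 3 lower. For each of these lists the background is the same, 14.4% of all genes called higher and 14.7% called lower. Myf5 differed by 0.22 (adjusted p = 0.210) and Cxcr4 rose by 0.37 (adjusted p = 0.0467). Cxcr4 was called in only 6 of 18 alternative ways of processing, and without old replicate 1 or 2 it differed by 0.26 and 0.48. The part of any of these cell types in the 5 transcripts was not tested.

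**Figure D4:**
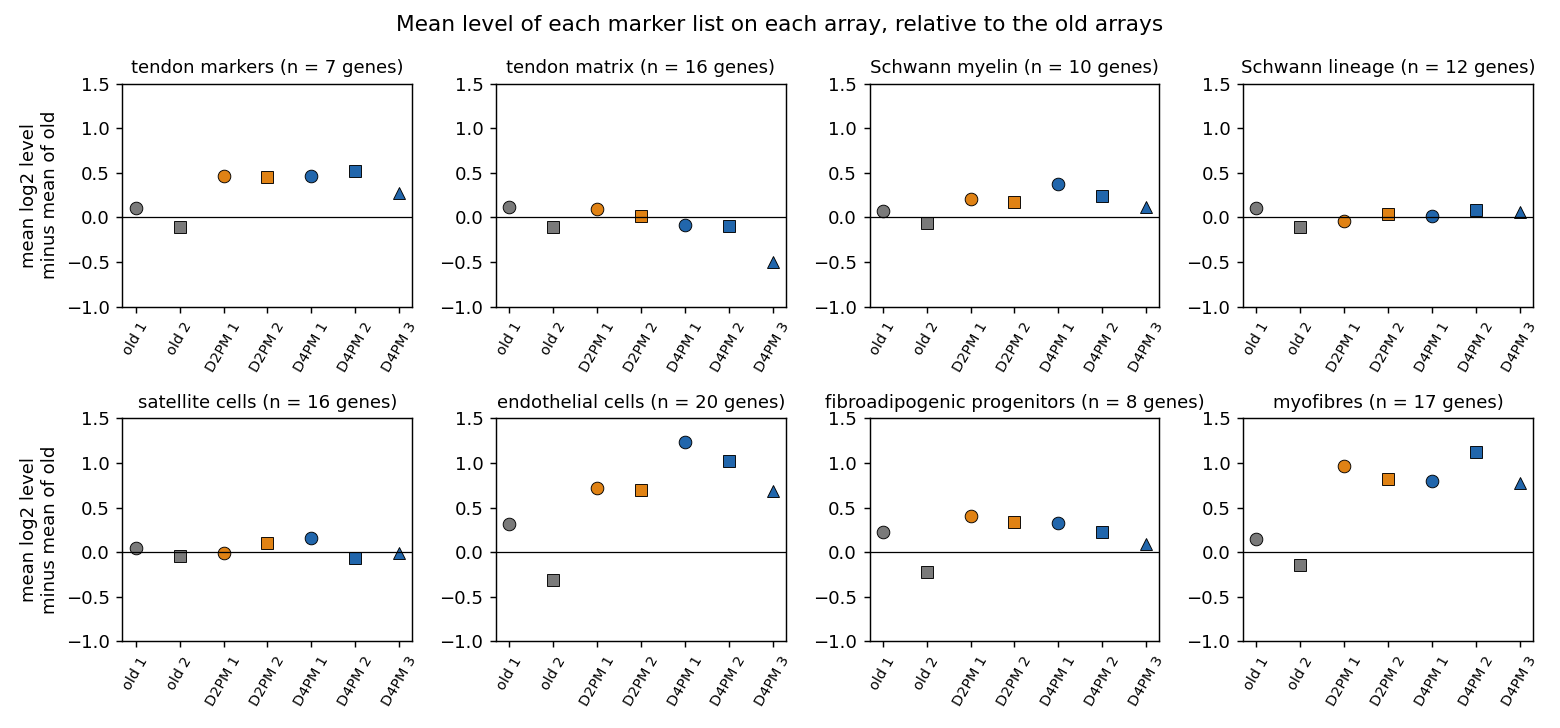
The mean log2 level of 8 lists of cell type genes is plotted for each of the 7 arrays, less the mean of the 2 old arrays, with 1 point per array. Tendon marker, Schwann myelin, endothelial and myofibre means are higher on every post-mortem array than on either old array. Satellite cell means stay near 0, and the tendon matrix mean is lowest on D4PM replicate 3.

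With the endothelial list mean as a covariate in the fit, the post-mortem minus old difference became -0.25 for Tnmd, -0.64 for Thbs4, 0.83 for Fmod, 0.093 for S100b and 0.53 for Mbp. These values are given as a description, without standard errors, with Tnmd and Thbs4 below 0 and S100b, Fmod and Mbp above 0. The 3 groups held 77.1% of the variance of that covariate, so most of its variation cannot be told apart from the difference between groups. Which transcripts follow the endothelial genes was therefore not tested, and the genes are not sorted by these values. With the covariate, 155 genes in all were called in place of 2887. Chad (0.99, adjusted p = 0.0794), Kera, Scx, Egr2 and Pmp22 were no longer called higher. Genes that had been lower lost their calls too, namely Tnc, Col5a2, Cadm4, Ncam1, S100a3 and S100a11. Lox was still called lower (-1.72, adjusted p = 0.0127).

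**Figure D5:**
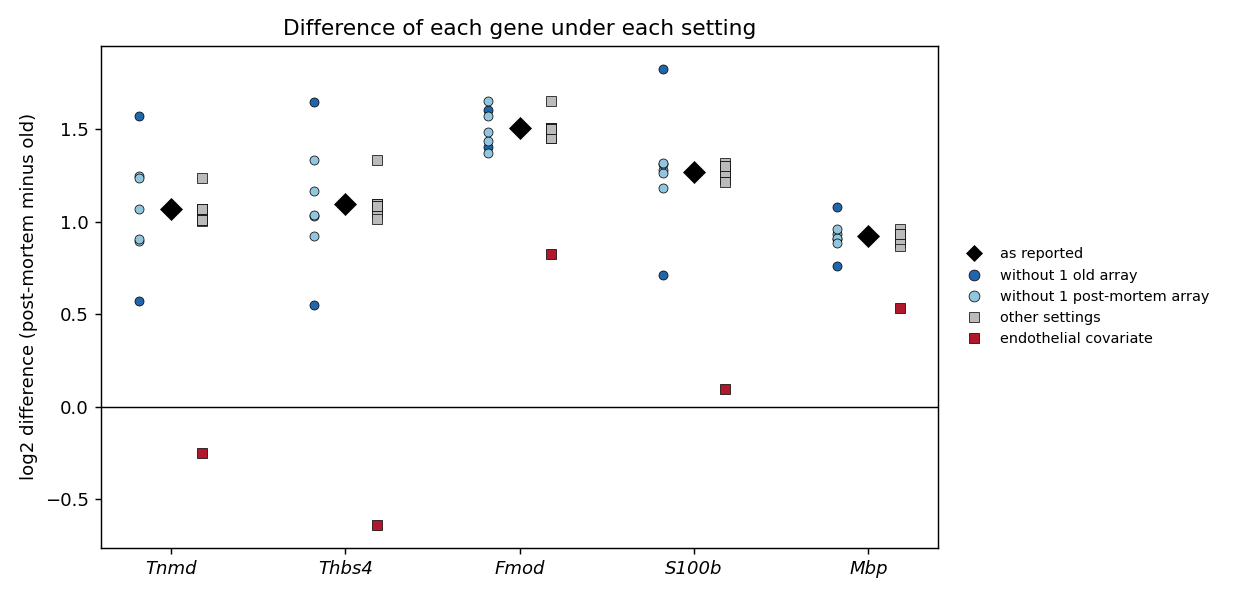
The post-mortem minus old difference in log2 level of the 5 transcripts is plotted under each processing setting (diamond for the reported value, circles for fits without 1 array, squares for other settings). The lowest values are those with the endothelial list mean as a covariate (-0.64 for Thbs4 and -0.25 for Tnmd), and leaving out old replicate 1 gives 1.83 for S100b.

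Over the 7 arrays, the log2 levels of the 5 transcripts went together, as a description of arrays that share the old to post-mortem shift. Pearson's r was 0.93 for Tnmd with Thbs4, 0.87 for Thbs4 with Fmod, 0.93 for S100b with Mbp, 0.95 for Fmod with Mbp and 0.63, the lowest, for Tnmd with S100b. Among the other 9943 genes tested, those most like Tnmd were Cfap298, Srp14 and Selenok (r = 0.986, 0.985 and 0.978). For Thbs4 they were Mgp, Trappc4 and S100a1 (0.969, 0.960 and 0.957). For Fmod they were BC031181, Slc50a1 and Sgk1 (0.987, 0.983 and 0.980), for S100b Irf2bp2, Pik3r1 and Slc30a1 (0.995, 0.992 and 0.991) and for Mbp Zc4h2, Egr2 and Mb (0.998, 0.993 and 0.993). None of the 5 was among the 3 nearest of another. The number of genes with r above 0.9 was 83 for Tnmd, 55 for Thbs4, 343 for Fmod, 363 for S100b and 595 for Mbp.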

How the data were processed

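Log2 expression levels of the 7 GeneChip Mouse Gene 1.0 ST arrays were used as deposited. Per the methods, the authors extracted total RNA from sorted cells in lysis buffer, amplified it with Ovation Pico V2 and normalised the arrays by RMA, which corrects background, quantile-normalises and summarises probes as log2 values. Amplification of small samples and quantile normalisation can both shift weak signals. The methods also describe leaving out probes without apparent expression and probes that did not vary. Shares of all genes are therefore over genes with deposited values, which may vary more than those of the whole array. The lowest SD of a probe set in the table was 0.0914. The number of arrays limits the precision, and the array medians were 6.11 to 6.19.

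Probe sets were named from the platform annotation: 14480 had 1 gene, 774 several and 3421 none, and 14425 of the 14480 matched RefSeq (GRCm38.p6) with 0 symbols changed. A gene was its brightest probe set annotated to it alone, with a mean of at least 5.12, the 25th percentile. Groups came from the sample titles. One limma (3.58.1, R 4.3.3) fit held 3 group means (4 residual degrees of freedom), with the contrasts D4PM minus D2PM and post-mortem (mean of the D2PM and D4PM means) minus old and Benjamini-Hochberg adjustment over 9944 genes at 0.05, and was tested on simulated data. P-values measure the spread between these arrays, which may be technical.

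The 5 genes and all gene lists were chosen with earlier results of these data known. Named are the 5 genes, in the tendon, Schwann and family lists the 4 genes of highest mean and up to 4 called with the smallest p, in other lists the 2 of highest mean, and for each of the 5 the 3 genes of highest Pearson r. Alternatives covered normalisation, filter, probe set choice, variance prior, array weights, replicate block, groups alone, a test without variance moderation, an endothelial covariate and leaving out each array. Replicate numbers were taken as names only, since same-numbered arrays deviated with correlations of -0.0802 to 0.0512.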

Additional observations from a re-analysis of the deposited data

Results flagged for a closer look

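Over the 5 post-mortem arrays, 20 values were examined for 1 array far from the others, measured as its gap to the nearest array over the whole range, and 4 exceeded the critical value of 0.71. Chance gives about 1 such value in 20 groups. For S100b the ratio was 0.748, with D4PM replicate 1 at 6.67 standing 0.53 above the next array in a range of 0.71. For the mean of the tendon markers it was 0.724, for the mean of the small leucine-rich proteoglycans 0.805 and for the mean of both tendon lists 0.721. D4PM replicate 3 was the low array in these 3, at 6.55, 7.64 and 7.03, and the lists share genes.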

How the results depend on the processing

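With 2 or 3 arrays a group and no depth behind a value, array signal over background limits the dim genes, and the old group in particular rests on a pair of arrays that differ by about 1 on the log2 scale for Tnmd, Thbs4 and S100b. The count of genes called between the days, 19, became 54 with the replicate block, 2 with the groups compared alone, 6 with the endothelial covariate, 0 with a test without variance moderation (692 at an unadjusted p below 0.05), and 0 to 21 with 1 array left out. The count between post-mortem and old, 2887, became 1719 with the unmoderated test, 155 with the covariate and 858 (without old replicate 2) to 2814 with 1 array left out. With arrays centred on their medians the split of calls was 1159 higher and 1771 lower in place of 1430 and 1457.

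Tendon genes called higher (3) numbered 5 with the replicate block, 1 with the unmoderated test, 0 with the covariate and 1 to 3 with an array left out, and those called lower (3) numbered 1 with the covariate and 2 to 3. Schwann genes called higher (2) numbered 1 with a second quantile normalisation, 1 with median centring, 4 without a filter, 4 with the mean of probe sets, 5 with a trended robust prior, 1 with the unmoderated test, 0 with the covariate and 0 to 4 with an array left out. Those called lower (2) numbered 1 with the replicate block, 1 with the unmoderated test, 0 with the covariate and 1 to 2.

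The post-mortem minus old difference with the covariate was -0.25 for Tnmd, -0.64 for Thbs4, 0.83 for Fmod, 0.093 for S100b and 0.53 for Mbp. With 1 array left out it ran from 0.57 to 1.57 for Tnmd, 0.55 to 1.64 for Thbs4, 1.37 to 1.65 for Fmod, 0.71 to 1.83 for S100b and 0.76 to 1.08 for Mbp. The D4PM minus D2PM difference turned to 0.36 for Thbs4 and 0.28 for Fmod with the replicate block, in which D4PM replicate 3 has no partner and drops out, to 0.030 for Fmod with a second quantile normalisation and to -0.046 for S100b with the covariate. With 1 array left out it ran from -0.97 to -0.27 for Tnmd, -0.46 to 0.36 for Thbs4, -0.28 to 0.28 for Fmod, 0.16 to 0.43 for S100b and 0.074 to 0.22 for Mbp. None passed the threshold in any of these fits, with adjusted p from 0.363 (Tnmd) to 0.985 (Fmod) over the settings other than leaving out an array. With the filter at the 50th percentile Tnmd and S100b had no value. The causes were not tested.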

Other observations

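S100a8 and S100a9, genes of neutrophils in the family of S100b, had the widest spread among the S100 genes named here and are given after their values were seen. The log2 level of S100a8 was 8.26 and 6.53 in the old group, 7.65 and 7.95 in D2PM and 8.81, 4.73 and 6.30 in D4PM. That of S100a9 was 8.53 and 6.99 in the old group, 8.03 and 8.75 in D2PM and 8.99, 6.03 and 7.16 in D4PM. Both were highest on D4PM replicate 1, as were 13.6% of all genes tested, and lowest on D4PM replicate 2. S100b was also highest on D4PM replicate 1, but its next highest level, 6.14, was on D4PM replicate 2. Neither was called in limma, at adjusted p = 0.874 and 0.892 for post-mortem against old and 0.701 and 0.683 between the days.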
